A study of Mus musculus with 18 samples.

Results

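Cell division and DNA replication genes were followed through every library of a study of mouse gliomas treated with PLX3397, an oral inhibitor of the CSF1 receptor on which macrophages and microglia depend. The members were 51 genes chosen by name, and the rows that carry those names were taken from each table. All 51 were found in each of the 3 bulk count tables, which held 35842 genes for tumours, 18267 for sorted cells and 35842 for cell lines. All 51 were also found among the 28692 genes of the 10x library and the 28474 genes of the Drop-seq library. By the textbook phase in which they act, 21 members were set down as G1/S genes, which start and carry out DNA replication, and 30 as G2/M genes, which divide the chromosomes.

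The 18 samples formed 8 groups, all from mice of the Boy/J strain. In the tumour comparison, 4 gliomas driven by HRasV12 with dominant negative p53 came from mice given PLX3397 at 100 mg/kg by daily gavage from day 7 after implantation until they were moribund, and 4 came from mice labelled as vehicle on the same schedule, although their treatment field reads untreated. In the sorted-cell comparison, CD11b-positive cells were taken with magnetic beads from PDGFB-driven gliomas after 3 days of daily PLX3397 at 100 mg/kg (2 libraries) or vehicle (1 library), begun on day 14 after implantation. In the line comparison, 2 lines from Ras tumours grew in serum-free medium with EGF and FGF at 20 ng/mL, and 3 lines from PDGF tumours grew in another medium that held PDGF-AA and PDGF-BB as well, so driver and medium cannot be told apart. A 10x library and a Drop-seq library were made from untreated Ras tumours, 1 library each. Ages are not given in the sources used here. Each tumour and sorted-cell library has a mouse number of its own within its group, and each line library is 1 line.

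Dividing cells pass through an ordered programme. The retinoblastoma protein holds E2F factors back until cyclin-dependent kinases release them. E2F then switches on the genes that license origins, unwind DNA and make deoxynucleotides. Later, the MuvB complex with B-MYB and FOXM1, helped by NF-Y, switches on the genes of the spindle, the kinetochore and the mitotic kinases, whose promoters often carry a cell cycle homology region and CCAAT boxes. In glioma, both tumour cells and tumour-associated macrophages can divide, so that a bulk level of these genes sums over cell types.

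The promoters of the members carried the letters of these elements more often than promoters at large. A set of 3 motifs was searched on both strands in RefSeq promoters of build GRCm38.p6 that ran from 250 bases before to 50 bases after the start: TTTGAA, the core of the cell cycle homology region, CCAAT, the NF-Y box, and TTTNNCGC, an E2F-type site. The table held 43 promoters of 42 members and 32851 promoters in all, and Aurkb, Ccna2, Ccne2, Foxm1, Gins1, Gins2, Kif20a, Mcm4 and Tpx2 were not matched. TTTGAA stood in 20 of 25 G2/M promoters (80%) and in 2 of 18 G1/S promoters (11.1%), against 17.9% of all promoters. CCAAT stood in 20 of 25 G2/M promoters (80%) and in 12 of 18 G1/S promoters (66.7%), against 37.4% of all, and at 2 or more places in 15 and 8 of them, against 11.7% of all. TTTNNCGC stood in 2 of 25 G2/M promoters (8%) and in 8 of 18 G1/S promoters (44.4%), against 5.17% of all. Both TTTGAA and CCAAT stood in 17 of 25 G2/M promoters (68%), against 6.95% of all. In the window from 30 bases before to 50 bases after the start, chosen after the positions had been seen, TTTGAA was in 19 of 25 G2/M promoters (76%) and in 1 of 18 G1/S promoters (5.56%), against 3.83% of all. The motifs share letters by chance with many unrelated promoters, and a match is a description of the sequence and not of binding.

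**Figure D1:**
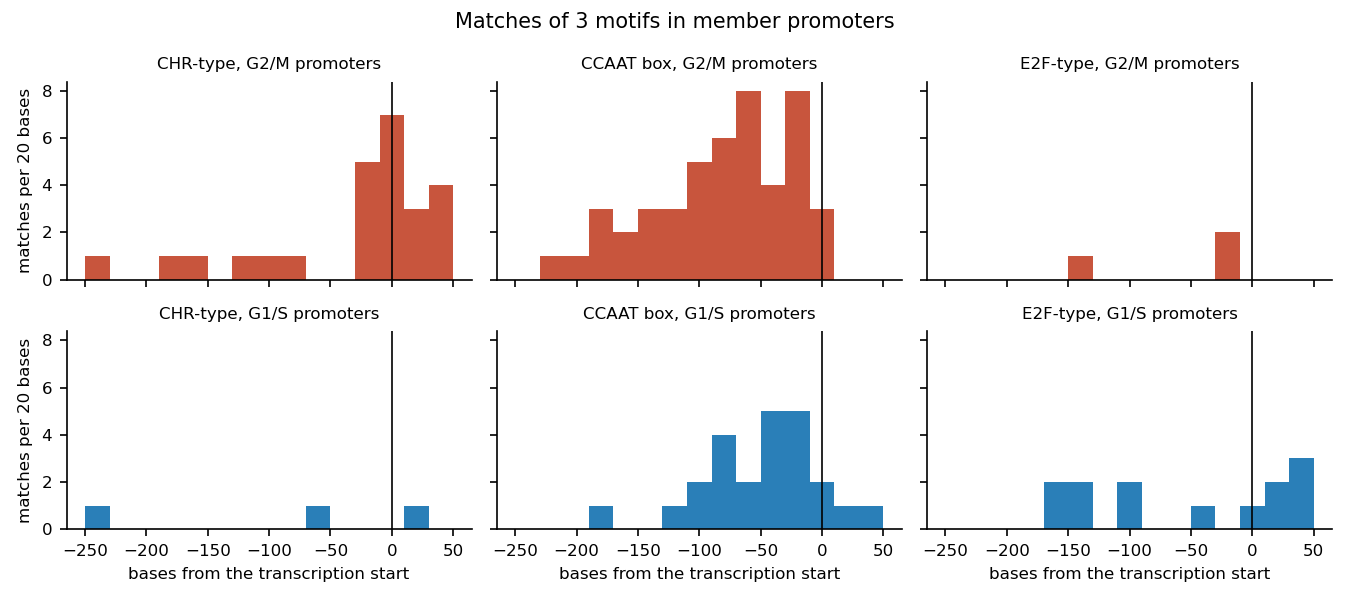
Matches of the cell cycle homology core, the CCAAT box and the E2F-type motif in 25 promoters of G2/M members (top, red) and 18 promoters of G1/S members (bottom, blue), as matches per 20 bases against the distance from the transcription start in bases. Matches of the homology core gather at the start in G2/M promoters, where 19 of 25 held one between 30 bases before and 50 bases after it, and E2F-type matches lie mainly in G1/S promoters (8 of 18, against 2 of 25 G2/M promoters).

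The 3 G2/M promoters below are those with TTTGAA and CCAAT whose genes had the lowest log2 fold under PLX3397 in CD11b-positive cells, and the 3 G1/S promoters are those with TTTNNCGC chosen the same way, so that the sequence classes can be set beside the values that follow. Capitals mark every match of the 3 motifs on either strand, reverse complements included, and all run 5′ to 3′ along the gene's strand. The Mki67 promoter lies at chr7:135716330-135716629 on the minus strand, that of Kif11 at chr19:37376132-37376431 on the plus strand, that of Ccnb2 at chr9:70421505-70421804 on the minus strand, that of Pclaf at chr9:65890073-65890372 on the plus strand, that of Cdc6 at chr11:98907901-98908200 on the plus strand and that of Mcm5 at chr8:75109259-75109558 on the plus strand. In Mki67 and Kif11 every CCAAT match lies upstream of every TTTGAA match, and in Ccnb2 the 3 CCAAT matches lie between one TTTGAA upstream and another that begins 4 bases after the start. In Mcm5 the TTTNNCGC matches on opposite strands overlap, and no other matches overlap in the 6 promoters.
Mki67: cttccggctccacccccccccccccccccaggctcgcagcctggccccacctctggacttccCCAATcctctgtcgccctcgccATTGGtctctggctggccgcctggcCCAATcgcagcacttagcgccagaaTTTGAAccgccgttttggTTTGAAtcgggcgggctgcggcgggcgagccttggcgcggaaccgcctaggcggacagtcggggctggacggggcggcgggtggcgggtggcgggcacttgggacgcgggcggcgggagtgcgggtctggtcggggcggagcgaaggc
Kif11: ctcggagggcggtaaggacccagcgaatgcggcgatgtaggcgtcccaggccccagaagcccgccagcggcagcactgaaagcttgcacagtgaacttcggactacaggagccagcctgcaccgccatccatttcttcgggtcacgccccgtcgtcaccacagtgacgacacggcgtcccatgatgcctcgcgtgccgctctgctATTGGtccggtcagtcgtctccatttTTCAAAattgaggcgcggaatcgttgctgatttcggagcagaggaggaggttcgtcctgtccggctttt
Ccnb2: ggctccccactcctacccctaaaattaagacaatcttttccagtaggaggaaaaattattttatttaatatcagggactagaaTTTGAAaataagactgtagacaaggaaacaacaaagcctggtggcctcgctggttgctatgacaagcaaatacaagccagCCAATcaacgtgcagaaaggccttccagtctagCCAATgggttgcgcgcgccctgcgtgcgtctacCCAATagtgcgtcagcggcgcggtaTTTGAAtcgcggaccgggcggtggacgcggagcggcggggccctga
Pclaf: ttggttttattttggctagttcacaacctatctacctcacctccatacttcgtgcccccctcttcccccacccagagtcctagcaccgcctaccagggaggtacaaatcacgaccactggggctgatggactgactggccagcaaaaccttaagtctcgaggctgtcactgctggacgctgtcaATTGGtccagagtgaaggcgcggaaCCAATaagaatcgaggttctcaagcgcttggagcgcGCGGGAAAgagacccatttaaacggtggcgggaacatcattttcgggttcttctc
Cdc6: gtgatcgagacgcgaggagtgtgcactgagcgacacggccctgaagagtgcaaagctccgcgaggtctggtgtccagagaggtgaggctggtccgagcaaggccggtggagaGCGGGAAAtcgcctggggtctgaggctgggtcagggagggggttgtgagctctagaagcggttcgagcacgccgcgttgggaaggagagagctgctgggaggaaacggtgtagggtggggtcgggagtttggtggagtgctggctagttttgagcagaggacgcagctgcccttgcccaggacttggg
Mcm5: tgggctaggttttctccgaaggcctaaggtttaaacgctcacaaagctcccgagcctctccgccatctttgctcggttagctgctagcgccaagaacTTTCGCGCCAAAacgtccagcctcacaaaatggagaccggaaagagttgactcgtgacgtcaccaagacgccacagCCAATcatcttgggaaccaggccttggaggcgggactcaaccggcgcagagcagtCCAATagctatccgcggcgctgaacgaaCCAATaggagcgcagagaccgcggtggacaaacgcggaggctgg

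Bulk libraries held 31262168 to 35905408 counts for tumours, 26777183 to 30874763 for CD11b-positive cells and 32000682 to 35910674 for lines, and every member passed the filter on low counts in all 3 tables. Levels are given as CPM, which are counts scaled to the size of the library with TMM factors. In edgeR's quasi-likelihood test, a gene was called at an adjusted p under 0.05 over all genes tested. Ccnb1, Ccnb2, Kif4, Pcna and Tyms have an annotated pseudogene of their name, so reads could be split between copies, and their values are less certain. In CD11b-positive cells, Itgam, the gene of the sorted antigen, stood at 585 and 810 CPM in the PLX3397 libraries and 1190 CPM in the vehicle library, and Csf1r, the receptor that PLX3397 inhibits, at 1780 and 1580 CPM and at 2030 CPM.

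The division programme was lower as a whole in CD11b-positive cells after 3 days of PLX3397. All 51 members had a log2 fold below 0, with a median of -1.55 over members and 0.01 over all genes tested. Of the 51 members, 22 fell at an adjusted p under 0.05, while over all 15052 genes tested 1.78% fell by this rule, 4.57% rose and 6.35% changed in either direction. No member rose. All 51 had an unadjusted p under 0.05 with a fold below 0, which 11.1% of all genes had. The fold of the members ran from -2.57 for Pclaf to -0.62 for E2f1, and their adjusted p from 0.0345 to 0.108, so the uncalled members lay close above the threshold. The summed members stood at 1060 and 1530 CPM in the PLX3397 libraries, against 3840 CPM in the vehicle library.

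Every member was highest in the vehicle library, and every member was lower in PLX3397 library 1 than in PLX3397 library 2. With 2 libraries against 1, groups that do not overlap are frequent in this table (42% of all genes were lower in both PLX3397 libraries), so the counts rest on the fit, in which the lone vehicle library is assumed to vary like the PLX3397 libraries. Against the vehicle library, the median log2 difference of the members was -1.81 for PLX3397 library 1 alone and -1.26 for library 2 alone, with all 51 below the vehicle in each. The count was 26 with RLE factors (7.63% of all genes called) and 22 with library size alone (7.33%). It was 41 with upper-quartile factors (13%), 48 under DESeq2 (10.8%) and 38 with no filter on low counts (10.4%).

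**Figure D2:**
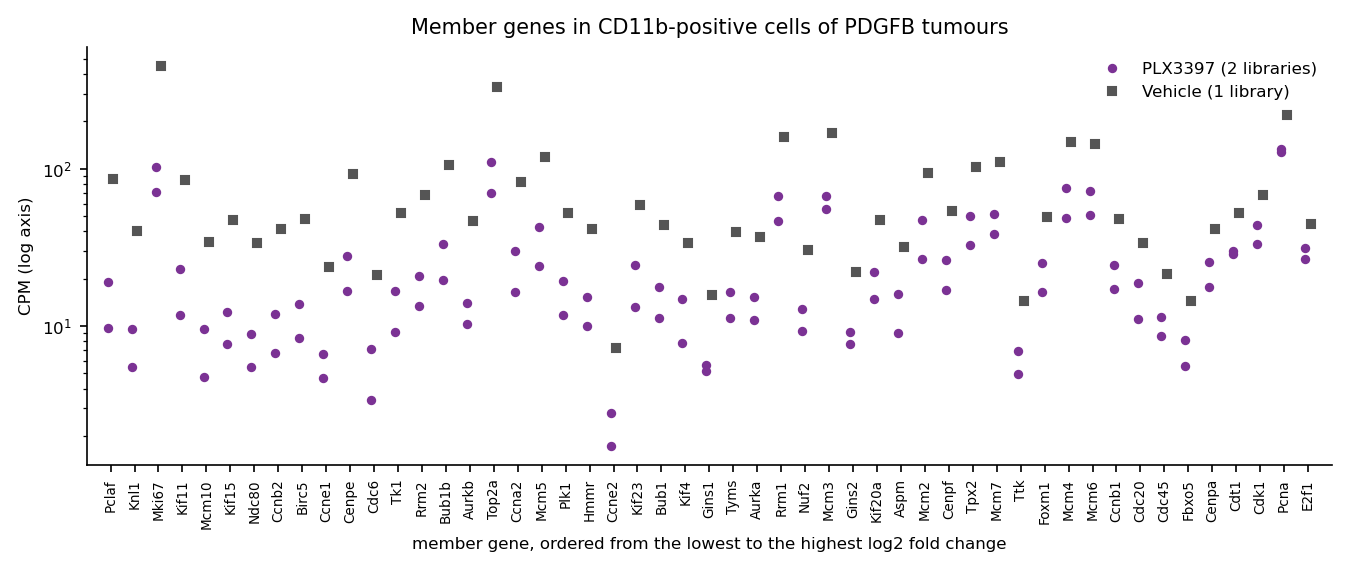
CPM (log axis) of the 51 members in CD11b-positive cells of PDGFB tumours, with genes ordered from the lowest to the highest log2 fold. The 2 PLX3397 libraries (circles) lie below the vehicle library (square) in all 51 genes, and the distance shrinks from Pclaf on the left to E2f1 on the right.

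Both members that mark proliferation and shape chromosomes fell. Mki67, the antigen that coats chromosomes of cycling cells, had 71.3 and 102 CPM in the PLX3397 libraries, against 449 CPM in the vehicle library (log2 fold -2.37, SE 0.25, adjusted p = 0.0345). Top2a, the topoisomerase that untangles replicated DNA, had 69.9 and 111 CPM in the PLX3397 libraries, against 328 CPM in the vehicle library (log2 fold -1.86, SE 0.29, adjusted p = 0.044). Of the 6 cyclins and Cdk1, Ccnb2 and Ccne1 fell. Ccne1, the cyclin that opens S phase, had 4.65 and 6.6 CPM in the PLX3397 libraries, against 23.6 CPM in the vehicle library (log2 fold -2.07, SE 0.28, adjusted p = 0.0354). Ccnb2, a cyclin of mitotic entry, had 6.79 and 11.9 CPM in the PLX3397 libraries, against 41.3 CPM in the vehicle library (log2 fold -2.14, SE 0.35, adjusted p = 0.0461). Ccna2, the cyclin of S and G2 phase, had 16.5 and 29.8 CPM in the PLX3397 libraries, against 82.3 CPM in the vehicle library (log2 fold -1.83, SE 0.35, adjusted p = 0.0564). The remaining cyclins and their kinase did not pass the threshold. Ccne2, the second cyclin E, had 1.74 and 2.81 CPM in the PLX3397 libraries, against 7.28 CPM in the vehicle library (log2 fold -1.67, SE 0.41, adjusted p = 0.0805). Ccnb1, the main partner of Cdk1 in mitosis, had 17.1 and 24.6 CPM in the PLX3397 libraries, against 47.8 CPM in the vehicle library (log2 fold -1.20, SE 0.26, adjusted p = 0.0666). Cdk1, the kinase that drives mitosis, had 33.2 and 43.7 CPM in the PLX3397 libraries, against 68 CPM in the vehicle library (log2 fold -0.82, SE 0.21, adjusted p = 0.0877). Cdk1 thus showed one of the smallest folds of the list, while its cyclin partners lay lower. Neither of the transcription factors was called. E2f1, the activator of S phase genes, had 26.6 and 31.1 CPM in the PLX3397 libraries, against 44.4 CPM in the vehicle library (log2 fold -0.62, SE 0.18, adjusted p = 0.104). Foxm1, the activator of mitotic genes, had 16.4 and 25 CPM in the PLX3397 libraries, against 49.6 CPM in the vehicle library (log2 fold -1.26, SE 0.28, adjusted p = 0.071).

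Of the 12 genes of origin licensing and the helicase, 4 fell, namely Mcm3, Mcm7, Gins1 and Gins2, and the median log2 fold of all 12 was -1.36. Mcm3, a subunit of the ring-shaped MCM helicase, had 55.2 and 67 CPM in the PLX3397 libraries, against 168 CPM in the vehicle library (log2 fold -1.46, SE 0.17, adjusted p = 0.0345). Mcm2, another subunit, had 26.8 and 47.2 CPM in the PLX3397 libraries, against 93.4 CPM in the vehicle library (log2 fold -1.33, SE 0.34, adjusted p = 0.09). Mcm5, a further subunit, had 24 and 42.5 CPM in the PLX3397 libraries, against 118 CPM in the vehicle library (log2 fold -1.83, SE 0.34, adjusted p = 0.0538). The helicase is loaded onto origins in G1, and the fold of its subunits ranged from -1.83 for Mcm5 to -1.22 for Mcm6. Mcm10, a factor of helicase activation, had 4.73 and 9.61 CPM in the PLX3397 libraries, against 34.4 CPM in the vehicle library (log2 fold -2.26, SE 0.42, adjusted p = 0.0536). Cdc6, a loader of the helicase, had 3.4 and 7.12 CPM in the PLX3397 libraries, against 21.2 CPM in the vehicle library (log2 fold -2.0, SE 0.45, adjusted p = 0.0714). Cdt1, its partner in loading, had 28.9 and 30 CPM in the PLX3397 libraries, against 51.9 CPM in the vehicle library (log2 fold -0.82, SE 0.15, adjusted p = 0.0522). Mcm10 and Cdc6 had large folds with large standard errors, and Cdt1 had a small fold with close replicates.

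At the fork, the PCNA clamp and its partner Pclaf stood apart in size. Pclaf, the PCNA-associated factor, had 9.71 and 19.1 CPM in the PLX3397 libraries, against 85.7 CPM in the vehicle library (log2 fold -2.57, SE 0.39, adjusted p = 0.0437). Pcna, the sliding clamp of the polymerases, had 128 and 134 CPM in the PLX3397 libraries, against 218 CPM in the vehicle library (log2 fold -0.73, SE 0.15, adjusted p = 0.0562). Pclaf fell and had the lowest fold of the 51, while Pcna had the second smallest change. Of the 4 genes of nucleotide supply, Rrm1 and Rrm2, which form ribonucleotide reductase, fell. Rrm2, the small subunit, had 13.4 and 20.9 CPM in the PLX3397 libraries, against 68.3 CPM in the vehicle library (log2 fold -1.99, SE 0.29, adjusted p = 0.0415). Tyms, thymidylate synthase, had 11.2 and 16.5 CPM in the PLX3397 libraries, against 39.5 CPM in the vehicle library (log2 fold -1.51, SE 0.27, adjusted p = 0.0506). Tk1, the thymidine kinase of S phase, had 9.16 and 16.7 CPM in the PLX3397 libraries, against 52 CPM in the vehicle library (log2 fold -2.0, SE 0.37, adjusted p = 0.0522).

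Of 7 mitotic and checkpoint kinases and their partners, Aurka, Aurkb, Birc5 and Bub1b fell. Aurkb, the kinase of the chromosomal passenger complex, had 10.3 and 14.1 CPM in the PLX3397 libraries, against 46.7 CPM in the vehicle library (log2 fold -1.94, SE 0.24, adjusted p = 0.0345). Birc5, its partner survivin, had 8.34 and 13.8 CPM in the PLX3397 libraries, against 47.7 CPM in the vehicle library (log2 fold -2.10, SE 0.32, adjusted p = 0.0435). Plk1, the polo-like kinase, had 11.7 and 19.2 CPM in the PLX3397 libraries, against 52.6 CPM in the vehicle library (log2 fold -1.76, SE 0.31, adjusted p = 0.0504). Plk1 missed the threshold by a small margin. Bub1, a kinase of the spindle checkpoint, had 11.3 and 17.8 CPM in the PLX3397 libraries, against 43.9 CPM in the vehicle library (log2 fold -1.59, SE 0.30, adjusted p = 0.0538). Neither Cdc20, which activates the anaphase-promoting complex, nor Fbxo5, which inhibits it, was called. Cdc20 had 11.1 and 18.8 CPM in the PLX3397 libraries, against 33.9 CPM in the vehicle library (log2 fold -1.18, SE 0.34, adjusted p = 0.108).

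Of 6 centromere and kinetochore genes, 4 fell: Cenpe, Knl1, Ndc80 and Nuf2. Knl1, the scaffold that recruits checkpoint proteins, had 5.46 and 9.61 CPM in the PLX3397 libraries, against 40.4 CPM in the vehicle library (log2 fold -2.42, SE 0.35, adjusted p = 0.0415). Cenpf, a large protein of the outer kinetochore, had 17 and 26.1 CPM in the PLX3397 libraries, against 53.6 CPM in the vehicle library (log2 fold -1.31, SE 0.28, adjusted p = 0.0667). Of 8 spindle genes, Kif11, Kif15 and Hmmr fell. Kif11, the kinesin that pushes spindle poles apart, had 11.7 and 23 CPM in the PLX3397 libraries, against 84.6 CPM in the vehicle library (log2 fold -2.28, SE 0.39, adjusted p = 0.0489). Hmmr, a spindle assembly factor, had 10 and 15.3 CPM in the PLX3397 libraries, against 41.5 CPM in the vehicle library (log2 fold -1.71, SE 0.28, adjusted p = 0.0473). Called members were found in both phases, 8 of 21 G1/S genes (median log2 fold -1.47) and 14 of 30 G2/M genes (median -1.61), and the difference between the phases was not tested.

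Cycle genes outside the list were mostly lower as well, and of 10 brakes on the cycle 1 was called higher and 1 lower. Over all genes tested, 1.78% fell and 4.57% rose by the same rule. Of 30 other S phase genes, 7 fell and all 30 had a fold below 0 (median -1.16), among them Fen1, the flap endonuclease, with 25.3 and 29.2 CPM in the PLX3397 libraries, against 81.1 CPM in the vehicle library. Fen1 fell. Of 34 other G2 and M phase genes, 10 fell and 32 had a fold below 0 (median -1.03), among them Nusap1, a spindle protein, with 7.64 and 11.6 CPM in the PLX3397 libraries, against 47.8 CPM in the vehicle library. Of 10 genes that hold the cycle back, Gas1, a growth arrest gene, rose. It had 21.3 and 28.2 CPM in the PLX3397 libraries, against 4.64 CPM in the vehicle library (log2 fold 2.42, SE 0.28, adjusted p = 0.0345). Rbl1, the pocket protein p107, fell. It had 35.1 and 41.8 CPM in the PLX3397 libraries, against 79.3 CPM in the vehicle library (log2 fold -1.04, SE 0.17, adjusted p = 0.044). The other 8, Cdkn1c and Rbl2 among them, did not pass the threshold, and the median log2 fold of the 10 was -0.13. Glial and pericyte or fibroblast markers were also higher in the PLX3397 libraries, as given below. Their part in the rise of Gas1 was not tested.

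Markers of other cells differed between the same libraries, in which 4.57% of all genes tested were called higher and 1.78% lower. Summed glial precursor, astrocyte or tumour markers stood at 879 and 844 CPM in the PLX3397 libraries, against 192 CPM in the vehicle library, with 8 of 14 called higher. Pdgfra, the receptor of PDGF, had 51.9 and 50.2 CPM in the PLX3397 libraries, against 9.18 CPM in the vehicle library, and Gfap, an intermediate filament of astrocytes, had 279 and 231 CPM, against 32.9 CPM. Neuron markers summed to 136 and 151 CPM in the PLX3397 libraries, against 31.2 CPM in the vehicle library, with 5 of 8 called higher. Oligodendrocyte markers summed to 502 and 365 CPM in the PLX3397 libraries, against 210 CPM in the vehicle library, with 3 of 8 called higher. Pericyte or fibroblast markers summed to 590 and 1010 CPM, against 154 CPM, with all 9 folds above 0 and 2 called higher, and endothelial markers to 253 and 423 CPM, against 203 CPM, with 1 of 8 called higher. Neutrophil markers summed to 545 and 864 CPM, against 337 CPM, with none of 8 called, and monocyte or dendritic cell markers to 336 and 482 CPM, against 495 CPM, with none of 9 called. The summed markers of T or NK cells, B cells, erythroid and ependymal cells were at most 30.1 CPM in any of these libraries, with none called. Macrophage and microglia markers summed to 27200 and 18100 CPM in the PLX3397 libraries, against 18500 CPM in the vehicle library, with none of 14 called. Their folds lay below 0 for 9 markers and above 0 for 5 (median -0.08). By edgeR, 4 had an unadjusted p under 0.05 with a fold below 0, and 0 had one with a fold above 0. Over all genes tested, 11.1% and 18.2% did. The part of these markers in the fall of the members was not tested. In bulk libraries, fewer cells of a type and less RNA per cell cannot be told apart.

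In whole Ras tumours, PLX3397 left no member called, and the spread between mice was larger than the difference between groups. None of the 51 members was called, while 0% of the 18366 genes tested were called in this table (3.53% had an unadjusted p under 0.05, 3.11% with a fold below 0; DESeq2 called 178 genes, none of them a member). None of the 51 had an unadjusted p under 0.05, their smallest being 0.21 and every adjusted p being 0.9998, and the groups overlapped in all 51 (2.53% of all genes did not overlap, 2.09% with PLX3397 lower). The fold lay below 0 for 44 members and above 0 for 7, between -0.33 for Mcm10 and 0.08 for Rrm2, with a median of -0.11 against 0 over all genes. The summed members stood at 2440, 2880, 4620 and 4070 CPM in the PLX3397 tumours, against 3740, 2820, 3850 and 4730 CPM in the vehicle tumours.

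The members moved together from mouse to mouse. PLX3397 tumours 1 and 2 and vehicle tumour 2 were the lowest 3 libraries for 47 of 51 members, the exceptions being Ccne1, Cdt1, Gins2 and Cenpf. Against each gene's mean, the members averaged -0.55, -0.32, 0.37 and 0.20 on the log2 scale in PLX3397 tumours 1 to 4, and 0.10, -0.34, 0.13 and 0.41 in vehicle tumours 1 to 4. None of the 51 lay above its mean in PLX3397 tumour 1, in PLX3397 tumour 2 or in vehicle tumour 2. The highest library exceeded the lowest by a median of 2.03 times. The median fold changed sign when 1 library was left out, to 0.03 without PLX3397 tumour 1 and to 0.05 without vehicle tumour 4.

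**Figure D3:**
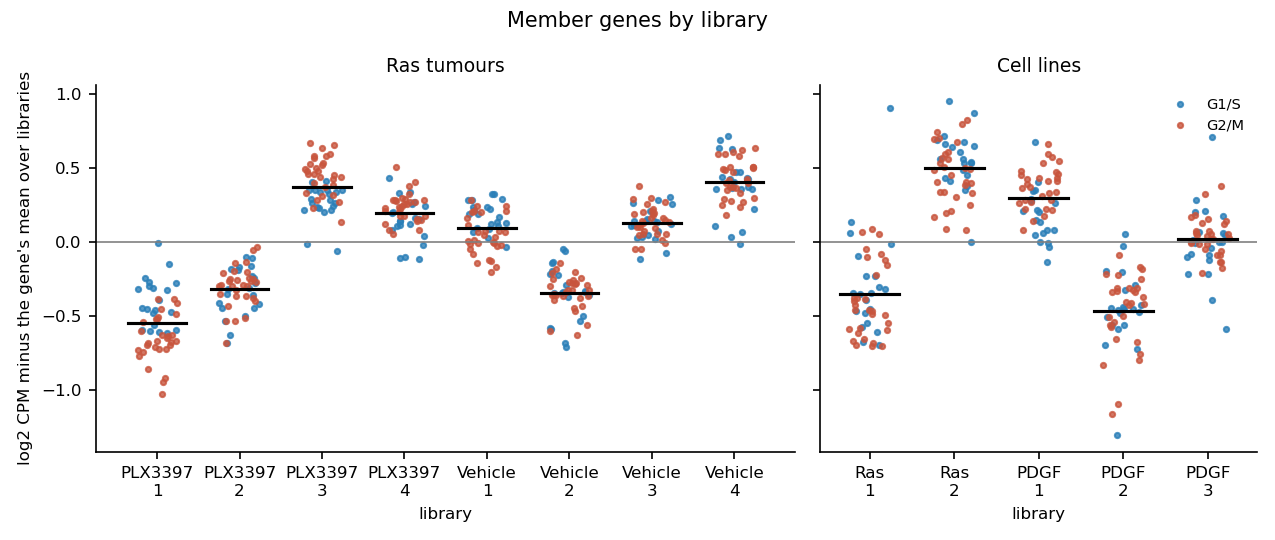
Log2 CPM of each member minus that gene's mean over the libraries of its table, for 8 Ras tumours (left) and 5 cell lines (right); each point is a gene, blue for G1/S and red for G2/M, and the black bar is the mean of the 51. PLX3397 tumours 1 and 2 and vehicle tumour 2 lie at -0.55, -0.32 and -0.34, and among the lines Ras line 1 and PDGF line 2 lie at -0.35 and -0.46, so low and high libraries occur in both groups.

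Mki67 and Top2a showed the pattern. Mki67 measured 88.6, 133, 227 and 181 CPM in PLX3397 tumours, against 143, 131, 196 and 247 CPM in vehicle tumours (log2 fold -0.19, SE 0.32). Top2a measured 169, 194, 329 and 296 CPM in PLX3397 tumours, against 241, 176, 276 and 319 CPM in vehicle tumours (log2 fold -0.03, SE 0.26). In both genes PLX3397 tumours 1 and 2 and vehicle tumour 2 were the lowest 3. Among the cyclins and Cdk1, 5 of 6 had the same 3 libraries lowest. Cdk1 measured 91.7, 99.8, 148 and 143 CPM in PLX3397 tumours, against 140, 93.1, 118 and 163 CPM in vehicle tumours. Ccna2 stood at 113, 124, 199 and 179 CPM in PLX3397 tumours, against 171, 124, 164 and 225 CPM in vehicle tumours. Ccnb1 reached 44.3, 59.5, 105 and 88.8 CPM in PLX3397 tumours, against 73.8, 58.5, 77.9 and 98.1 CPM in vehicle tumours. The groups overlapped in each. Ccne1 measured 16.6, 14.9, 16 and 15.4 CPM in PLX3397 tumours, against 20.4, 16, 18.1 and 16.5 CPM in vehicle tumours (log2 fold -0.18, SE 0.14). Ccne2 measured 21.7, 16.4, 33.6 and 35.5 CPM in PLX3397 tumours, against 28.9, 17.6, 30.5 and 34.9 CPM in vehicle tumours. Ccne1 varied little, with PLX3397 tumours near the lower vehicle tumours, and did not follow the other cyclins from mouse to mouse. E2f1 stood at 38.6, 48.7, 63.1 and 63.4 CPM in PLX3397 tumours, against 57.2, 47.7, 50 and 56.8 CPM in vehicle tumours. Foxm1 measured 71.4, 95.9, 171 and 138 CPM in PLX3397 tumours, against 105, 99.5, 126 and 136 CPM in vehicle tumours (log2 fold 0.03, SE 0.26). These transcription factors were among the 7 members with a fold above 0.

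All 12 licensing and helicase genes had a fold below 0 (median -0.19), none with an unadjusted p under 0.05. Mcm10 measured 17.1, 13.8, 24.7 and 23.2 CPM in PLX3397 tumours, against 23, 15.1, 26.3 and 34.4 CPM in vehicle tumours (log2 fold -0.33, SE 0.29). Mcm2 stood at 72.2, 85.3, 139 and 115 CPM in PLX3397 tumours, against 124, 93.1, 118 and 146 CPM in vehicle tumours. Mcm3 measured 73.9, 66.4, 104 and 100 CPM in PLX3397 tumours, against 102, 74.1, 101 and 116 CPM in vehicle tumours. Mcm10, with the lowest fold of the list, was highest in vehicle tumour 4 and lowest in PLX3397 tumour 2. Mcm5 measured 58.8, 60, 104 and 91.1 CPM in PLX3397 tumours, against 92.9, 64.6, 89.5 and 110 CPM in vehicle tumours. Cdc6 stood at 11.5, 13.2, 23.3 and 21 CPM in PLX3397 tumours, against 17.9, 11.7, 21.4 and 27.2 CPM in vehicle tumours. Cdt1 measured 29, 41.1, 52.2 and 41.1 CPM in PLX3397 tumours, against 55.2, 40.2, 44.8 and 56.8 CPM in vehicle tumours (log2 fold -0.27, SE 0.20). In Cdt1 the highest values were those of vehicle tumours 1 and 4. Pcna measured 108, 119, 174 and 170 CPM in PLX3397 tumours, against 173, 117, 151 and 201 CPM in vehicle tumours. Pclaf measured 39, 41.5, 73.4 and 69.5 CPM in PLX3397 tumours, against 69.1, 36.7, 70 and 96.4 CPM in vehicle tumours (log2 fold -0.28, SE 0.33). In both, vehicle tumour 4 was highest and the lowest 3 libraries were PLX3397 tumours 1 and 2 and vehicle tumour 2. Rrm2 measured 66.7, 58.9, 105 and 99.1 CPM in PLX3397 tumours, against 82.7, 62.7, 86.9 and 80.8 CPM in vehicle tumours (log2 fold 0.08, SE 0.21). Tyms stood at 22.7, 21.5, 39.2 and 39.2 CPM in PLX3397 tumours, against 36.5, 19, 34.3 and 48.2 CPM in vehicle tumours. Tk1 measured 30.7, 34.2, 44.7 and 35.7 CPM in PLX3397 tumours, against 46.8, 33.5, 40.4 and 44.8 CPM in vehicle tumours. Rrm2 had the highest fold of the 51.

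All 7 mitotic and checkpoint kinases and partners had the same 3 libraries lowest. Aurkb measured 28.5, 35.2, 58.6 and 47.1 CPM in PLX3397 tumours, against 53.7, 36.8, 50.2 and 64.2 CPM in vehicle tumours (log2 fold -0.27, SE 0.26). Birc5 stood at 41.4, 45, 59.4 and 59.8 CPM in PLX3397 tumours, against 62.4, 40.1, 54.5 and 80.7 CPM in vehicle tumours. Plk1 measured 52.9, 66.9, 108 and 93 CPM in PLX3397 tumours, against 84.6, 67.9, 86.4 and 98.3 CPM in vehicle tumours. Aurkb, among the 4 lowest folds, still overlapped between groups. Bub1 measured 23.7, 35.8, 76 and 68.7 CPM in PLX3397 tumours, against 48, 32.8, 58.1 and 72.9 CPM in vehicle tumours (log2 fold -0.05, SE 0.40). Cdc20 measured 43.2, 43.4, 68.1 and 59.9 CPM in PLX3397 tumours, against 63.3, 49.9, 58.8 and 73.1 CPM in vehicle tumours. Bub1 had the largest standard error of the kinases, from a low of 23.7 CPM to a high of 76 CPM, both in PLX3397 tumours. Knl1 measured 10, 13.3, 30.6 and 25.5 CPM in PLX3397 tumours, against 17.5, 15, 23.7 and 29.3 CPM in vehicle tumours (log2 fold -0.10, SE 0.38). Cenpf stood at 34.2, 50.7, 90.4 and 68.7 CPM in PLX3397 tumours, against 50.7, 47.9, 66.1 and 77.6 CPM in vehicle tumours. Nuf2 measured 34.5, 38.4, 67.6 and 55.9 CPM in PLX3397 tumours, against 49.5, 36.2, 50.6 and 53.6 CPM in vehicle tumours (log2 fold 0.05, SE 0.24). Nuf2, of the complex that holds microtubules, was among the 4 highest folds. Kif11 measured 39.9, 54.5, 88.4 and 74.4 CPM in PLX3397 tumours, against 64.2, 50.4, 72.3 and 91.4 CPM in vehicle tumours. Hmmr measured 25.8, 38.1, 58.3 and 46.2 CPM in PLX3397 tumours, against 42.8, 33.1, 46.7 and 53.2 CPM in vehicle tumours. Other S phase genes (0 of 30 called, median -0.13), other G2 and M phase genes (0 of 34, median -0.08) and brakes (0 of 10, median -0.02) held no called gene either.

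Macrophage and microglia markers summed to 2730, 2370, 599 and 903 CPM in the PLX3397 tumours, against 4450, 3870, 2880 and 1690 CPM in the vehicle tumours, with all 14 folds below 0 (median -1.38) and none called. The 2 PLX3397 tumours with the most macrophage marker RNA were thus the 2 with the least member RNA. By edgeR, 7 of the 14 macrophage markers had an unadjusted p under 0.05 with a fold below 0, against 3.11% of all genes. For 2 of the 14 the groups did not overlap, with PLX3397 lower, against 2.09% of all genes. Neuron markers summed to 4450, 1700, 1410 and 1490 CPM in the PLX3397 tumours, against 1450, 3850, 2050 and 377 CPM in the vehicle tumours, and were highest in PLX3397 tumour 1 and vehicle tumour 2, where the members were low. Oligodendrocyte markers summed to 1790, 804, 354 and 575 CPM in the PLX3397 tumours, against 453, 973, 771 and 64.7 CPM in the vehicle tumours. Astrocyte, glial precursor or tumour markers summed to 3670, 2610, 1930 and 2320 CPM in the PLX3397 tumours, against 1840, 2440, 2380 and 1080 CPM in the vehicle tumours. Their 3 highest sums were in PLX3397 tumours 1 and 2 and vehicle tumour 2, the libraries where most members were lowest. None of these markers was called. Their part in the members' spread was not tested. The Y-linked gene Ddx3y stood at 32.6 and 20.7 CPM in PLX3397 tumours 1 and 2 and at 19.6 and 26.8 CPM in vehicle tumours 1 and 2, and at 0.135 CPM or less in the other 4, while Xist, the RNA of the inactive X, was found in all 8 (244 to 721 CPM). Within the libraries with Ddx3y the median difference of the members was -0.30, with 51 of 51 below 0, and within those without it 0.01, with 22 of 51 below 0. In a test of that difference, the interaction of PLX3397 with Ddx3y, none of the 51 had an unadjusted p under 0.05 (smallest adjusted p = 0.9999, edgeR), and 363 of 18366 genes had one.

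**Figure D4:**
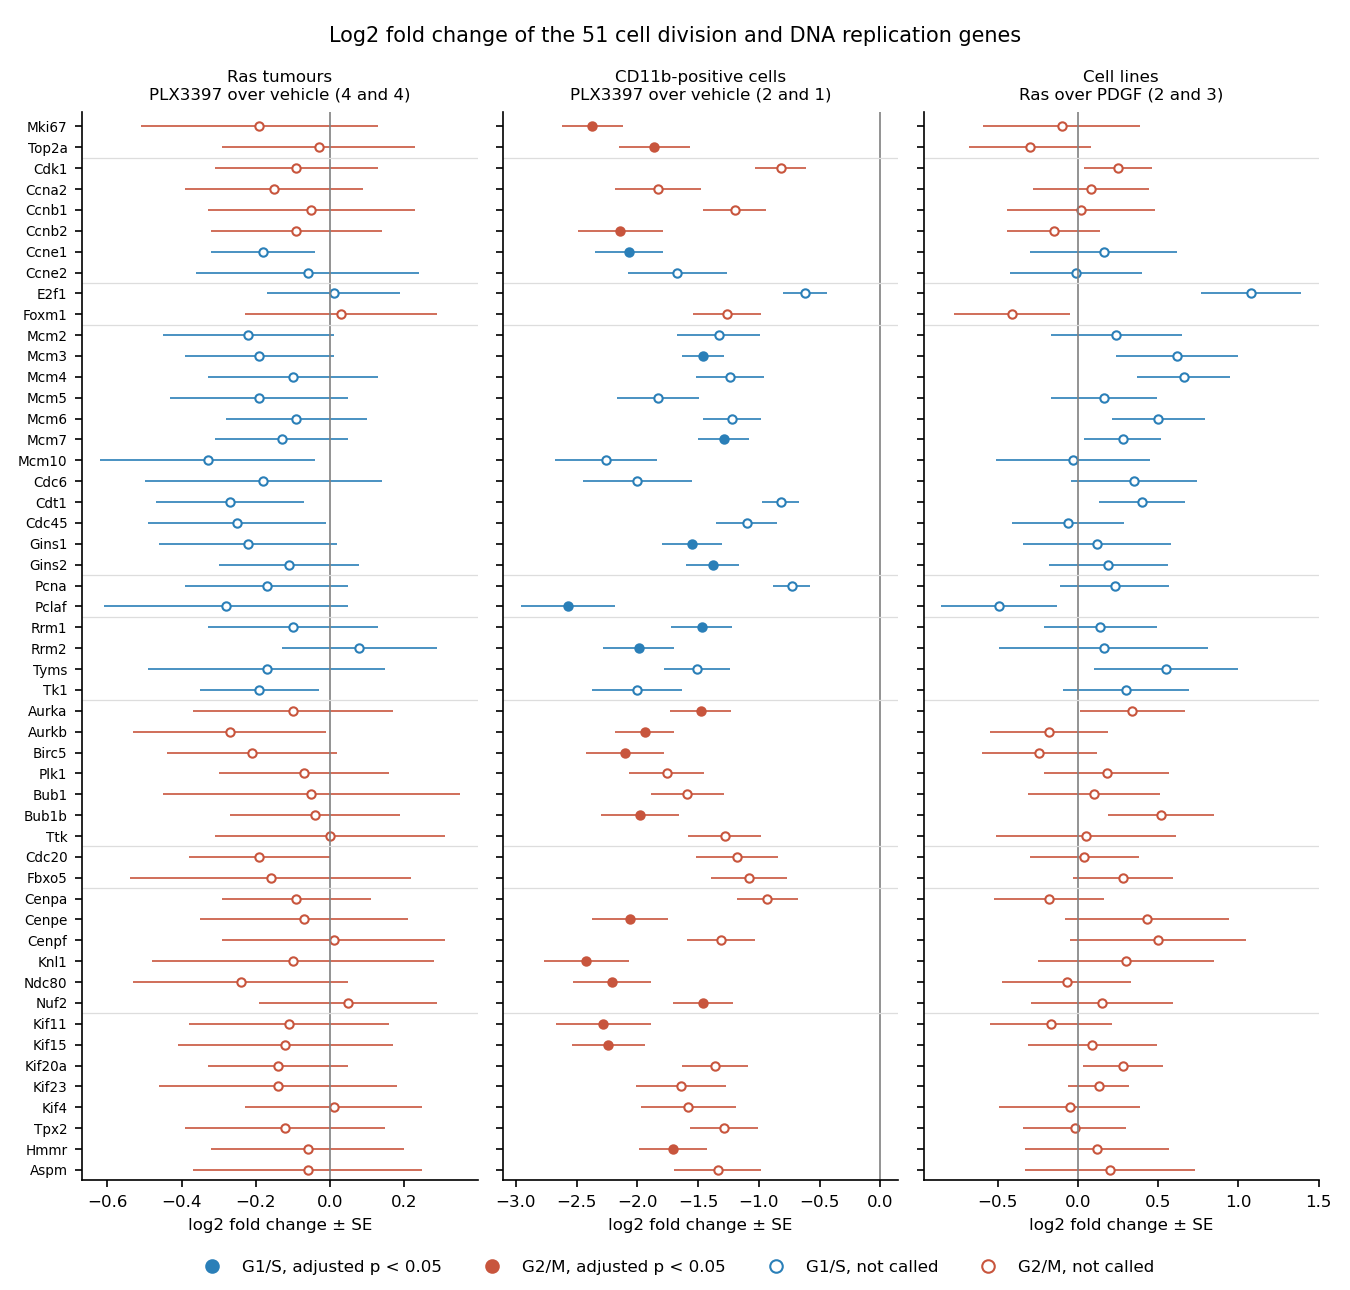
Log2 fold change with its standard error for the 51 members, grouped by role from chromosome structure (top) to spindle (bottom), for PLX3397 over vehicle in Ras tumours (left) and in CD11b-positive cells (middle) and for Ras over PDGF lines (right); filled points have an adjusted p under 0.05. All 51 lie below 0 in CD11b-positive cells with 22 filled, and no point is filled in tumours or lines; the horizontal axes differ in range.

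In cultured tumour lines, members varied within each driver: against each gene's mean they averaged -0.35 and 0.50 on the log2 scale in the Ras lines, and 0.29, -0.46 and 0.02 in the PDGF lines. None of the 51 was called, and 0% of 17475 genes were called in this table (16.3% had an unadjusted p under 0.05, 8.8% higher and 7.46% lower in the Ras lines; DESeq2 called 2035 genes, none of them a member). The fold lay above 0 for 36 members and below 0 for 15, with a median of 0.15 against 0.01 over all genes. E2f1 alone of the members had an unadjusted p under 0.05, and its adjusted p from edgeR was 0.239. Groups did not overlap for E2f1, Mcm4 and Cdt1, all higher in the Ras lines, a share below that of all genes (17.9% higher and not overlapping). The summed members stood at 4830 and 8670 CPM in the Ras lines, and at 4590 to 7860 CPM in the PDGF lines. Ras line 2 was the highest library for 40 of 51 members, PDGF line 2 the lowest for 29 and Ras line 1 the lowest for 22. Without Ras line 2 the median fold was -0.45, without Ras line 1 0.52 and without PDGF line 2 -0.06. Macrophage and microglia markers summed to 121 and 222 CPM in the Ras lines, against 277, 355 and 779 CPM in the PDGF lines. PDGF line 3 was highest, with C1qc, a complement gene of macrophages, at 27.4 CPM and Csf1r at 4.8 CPM, and without this line the median fold of the members was 0.13 with 0 called.

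E2f1 had the highest fold of the list. E2f1 measured 61.2 and 43.5 CPM in the Ras lines, against 32.5, 19.8 and 21.8 CPM in the PDGF lines (log2 fold 1.08, SE 0.31). Foxm1 measured 109 and 200 CPM in the Ras lines, against 259, 158 and 198 CPM in the PDGF lines (log2 fold -0.41, SE 0.36). The activator of S phase genes thus stood higher in both Ras lines, while Foxm1 overlapped. Of the 12 licensing and helicase genes, 10 had a fold above 0 and none was called. Mcm4 measured 134 and 211 CPM in the Ras lines, against 129, 87.2 and 111 CPM in the PDGF lines (log2 fold 0.66, SE 0.29). Mcm3 measured 114 and 244 CPM in the Ras lines, against 141, 93.8 and 115 CPM in the PDGF lines (log2 fold 0.62, SE 0.38). Mcm2 measured 113 and 247 CPM in the Ras lines, against 191, 114 and 152 CPM in the PDGF lines. Only Mcm4 of these did not overlap. Mcm5 stood at 86.4 and 154 CPM in the Ras lines, against 132, 87.6 and 104 CPM in the PDGF lines. Mcm10 measured 24.3 and 58 CPM in the Ras lines, against 52.2, 28.2 and 45.6 CPM in the PDGF lines. Cdc6 measured 27.1 and 53.7 CPM in the Ras lines, against 39.2, 24.3 and 31.4 CPM in the PDGF lines. Ras line 2 was the highest library for all 12 genes of this role. Cdt1 measured 42 and 49.8 CPM in the Ras lines, against 40.5, 25.5 and 38.2 CPM in the PDGF lines (log2 fold 0.40, SE 0.27). Pcna measured 187 and 335 CPM in the Ras lines, against 256, 169 and 242 CPM in the PDGF lines. Pclaf measured 82 and 122 CPM in the Ras lines, against 127, 106 and 199 CPM in the PDGF lines (log2 fold -0.49, SE 0.36). Pclaf had the lowest fold, with PDGF line 3 highest.

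Nucleotide genes were highest in Ras line 2 in all 4 cases. Rrm2 measured 117 and 241 CPM in the Ras lines, against 239, 60.6 and 182 CPM in the PDGF lines. Tyms measured 27.3 and 73.6 CPM in the Ras lines, against 34.7, 39.5 and 29.1 CPM in the PDGF lines (log2 fold 0.55, SE 0.45). Tk1 measured 43.3 and 85.7 CPM in the Ras lines, against 66.4, 39.9 and 50.4 CPM in the PDGF lines. The groups overlapped in each, and for Tyms the Ras lines were the lowest and the highest library. Mki67 measured 374 and 677 CPM in the Ras lines, against 745, 297 and 643 CPM in the PDGF lines (log2 fold -0.10, SE 0.49). Top2a measured 369 and 636 CPM in the Ras lines, against 831, 464 and 559 CPM in the PDGF lines (log2 fold -0.30, SE 0.38). Both were highest in PDGF line 1. Cdk1 measured 156 and 203 CPM in the Ras lines, against 170, 130 and 154 CPM in the PDGF lines. Ccna2 stood at 208 and 402 CPM in the Ras lines, against 345, 221 and 302 CPM in the PDGF lines. Ccnb1 measured 96.1 and 236 CPM in the Ras lines, against 211, 125 and 155 CPM in the PDGF lines. The Ras lines bracketed the PDGF lines for both cyclins. Ccne1 measured 16.3 and 31.5 CPM in the Ras lines, against 27.1, 13.2 and 24.1 CPM in the PDGF lines. Ccne2 stood at 30 and 69.2 CPM in the Ras lines, against 58.3, 41.8 and 49.3 CPM in the PDGF lines. Ras line 2 was highest for both cyclins E.

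Aurkb measured 61.2 and 90.9 CPM in the Ras lines, against 118, 59.3 and 80.7 CPM in the PDGF lines. Birc5 measured 48.6 and 95.2 CPM in the Ras lines, against 103, 72.6 and 79.7 CPM in the PDGF lines (log2 fold -0.24, SE 0.36). Plk1 measured 95.9 and 185 CPM in the Ras lines, against 158, 88.8 and 124 CPM in the PDGF lines. The mitotic kinases had PDGF line 2 lowest in 5 of 7 cases. Bub1 measured 57.6 and 107 CPM in the Ras lines, against 101, 51.6 and 78.8 CPM in the PDGF lines. Cdc20 stood at 85.6 and 147 CPM in the Ras lines, against 138, 83.6 and 117 CPM in the PDGF lines. Cenpf measured 121 and 238 CPM in the Ras lines, against 173, 60.1 and 147 CPM in the PDGF lines (log2 fold 0.50, SE 0.55). Cenpf was highest in Ras line 2 and lowest in PDGF line 2. Knl1 measured 37.2 and 90.9 CPM in the Ras lines, against 72.8, 29.5 and 54.2 CPM in the PDGF lines. Kif11 stood at 119 and 227 CPM in the Ras lines, against 209, 142 and 233 CPM in the PDGF lines. Hmmr measured 88.1 and 196 CPM in the Ras lines, against 179, 97.3 and 117 CPM in the PDGF lines. Of genes outside the list, none was called: Cdca7, a target of MYC and E2F, had 67 and 80.4 CPM in the Ras lines, against 31.7, 20.2 and 24.5 CPM in the PDGF lines (adjusted p = 0.205), and the brake Btg2 had 32.8 and 61.3 CPM, against 19.9, 14.3 and 23.9 CPM (adjusted p = 0.243).

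Single-cell libraries of untreated Ras tumours showed which cells held these transcripts. The 10x library kept 3320 of 4384 barcodes (median 8351 UMIs) and the Drop-seq library 4901 of 5000 (median 1396 UMIs). Their barcodes differ in length (16 and 12 bases), so shared barcodes cannot be counted. Cells were clustered with the members and the other cycle genes left out, so that these genes did not make the clusters, although genes that vary with them stayed in. With 1 library each there is no test across samples, and intervals are exact, at 95%, and cover counting error only. Beside a count of 0, the share that 3 cells would make is given, and the upper bound of the exact interval follows it. A cell was counted as holding the programme when it had 5 or more members after thinning to 2000 UMIs (10x) or 3 or more after thinning to 1000 UMIs (Drop-seq). A cluster was set down to a macrophage, neutrophil, lymphocyte, erythroid, vascular or oligodendrocyte class when at least 75% of that class's markers were raised against the median of the other clusters. The glial or tumour, neuron, ependymal and monocyte lists named no cluster, and clusters left over are called the remaining clusters, unless their median UMI count was too low to place them. Of the 14 glial or tumour markers, 11 were raised in the 10x remaining clusters led by Hist1h1b, Clca3a1 and Rorb, 10 in that led by Nefl and 8 in that led by Dcaf17, and 0 to 5 were raised in those of the Drop-seq library.

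In the 10x library, macrophage-like cells held the programme, at a share below that of the remaining clusters. Of 427 macrophage-like cells deep enough, 46 (10.8%, interval 8.0 to 14.1%) had 5 or more members, and of 1731 cells of the remaining clusters 276 did (15.9%, 14.2 to 17.8%). Member UMIs were 12.9 per 10000 UMIs in the macrophage-like clusters (12.6 to 13.2) and 21.3 in the remaining clusters (21.1 to 21.4). The remaining clusters held 88.5% of all member UMIs and the macrophage-like clusters 7.94%. Glial or tumour markers stood at 6.53 UMIs per 10000 in the macrophage-like and 64.3 in the remaining clusters, and macrophage markers at 602 and 10.7. Of 55 vascular cells 43 were deep enough, and 4 of these (9.3%, 2.59 to 22.1%) had 5 or more members.

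The other blood cells had lower member levels than the macrophage-like cells, and the part of free RNA in any class was not tested. Of 64 neutrophil-like cells, 0 had 5 or more members (3 cells would be 4.69%, exact upper bound 5.6%). Of 88 erythroid cells 0 did (3 cells would be 3.41%, exact upper bound 4.11%). Member UMIs were 5.17 per 10000 in neutrophil-like and 2.94 in erythroid cells, with median depths of 3106 and 2326 UMIs, against 7223 UMIs in macrophage-like cells. None of 24 B-like cells, 16 T or NK-like cells and 7 oligodendrocyte-like cells passed. There, 3 cells would be 12.5%, 18.8% and 42.9%, and the exact upper bounds were 14.2%, 20.6% and 41.0%. The 7 oligodendrocyte-like cells held 11 member UMIs, and their level depended on the clustering. When genes correlated with the members were also left out, an oligodendrocyte-like cluster of 53 cells stood at 11.9 member UMIs per 10000. Of its 44 cells deep enough, 6 (13.6%) had 5 or more members. Macrophage-like clusters stood at 17.3 and 10.9 there. Before thinning, 36.4% of macrophage-like cells and 57.9% of cells of the remaining clusters had 5 or more members, against 4.88% of neutrophil-like and 0% of erythroid cells. A further 537 cells in clusters of low UMI count were left without a class, although 13 of 14 glial or tumour markers were raised in the one led by Ppbp, and 18 of the 106 deep enough (17%) had 5 or more members.

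The macrophage-like cells came from a pair of clusters with different leading genes. In the cluster led by Ccl22 and Cst7 (270 cells, median 2517 UMIs), 25 of 168 cells (14.9%, 9.87 to 21.2%) had 5 or more members, and in the cluster led by Chil3 and Ccl24 (263 cells, median 15495 UMIs) 21 of 259 did (8.11%, 5.09 to 12.1%). All 14 macrophage markers were raised in each. Of the 9 monocyte or dendritic cell markers, 2 were raised in the first and 8 in the second. The top 10 genes of the first held Ccr7 of that list and Aif1 of the macrophage list. Those of the second held Ccr2 of that list and none of the macrophage list. Both clusters thus carried markers of both lists. Glial marker UMIs stood at 18.4 per 10000 in the first cluster and 3.91 in the second, and the part of glial RNA was not tested. Pooled over both clusters, of which the second is deeper, macrophage-like cells with 5 or more members carried 4.73 glial marker UMIs per 10000. Those with fewer members carried 6.52. Macrophage marker UMIs were 626 and 601. Of the 46 cells with 5 or more members, 4 were among the 5% of cells with the highest doublet scores. Scrublet called 0 doublets in the library. At the threshold, 17 macrophage-like cells had 4 members and 0 had 5, and 77 and 37 cells of the remaining clusters did.

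Member by member, 42 of 51 were lower in the macrophage-like clusters than in the remaining clusters and 9 higher, with a median ratio of 0.645. Mki67 stood at 0.712 UMIs per 10000 in macrophage-like and 1.09 in remaining clusters, and Top2a at 0.799 and 1.81. The lowest ratios were those of mitotic genes: Aspm, a spindle pole protein, stood at 0.0913 and 0.512, and Cenpf at 0.452 and 2.11. Of the 30 G2/M members, 29 were lower in the macrophage-like clusters (median ratio 0.566, from 0.178 for Aspm to 1.23 for Bub1b), and of the 21 G1/S members 13 were lower and 8 higher (median ratio 0.893, from 0.423 for Cdc45 to 1.96 for E2f1), a difference that was not tested. Pcna stood at 0.58 UMIs per 10000 in macrophage-like and 0.536 in remaining clusters, Mcm3 at 0.607 and 0.68, and Mcm7 at 0.394 and 0.684. Among cells with 5 or more members, the ratio of G2/M to G1/S UMIs was 1.55 in 46 macrophage-like and 2.78 in 276 remaining cells. Within the remaining clusters, it was 1.58 in that led by Rorb, 2.32 in that led by Clca3a1, 2.53 in that led by Nefl and 3.97 in that led by Hist1h1b. Of the 46 macrophage-like cells, 21 detected more G1/S than G2/M members and 24 the reverse. In the remaining clusters 80 and 183 did, 39 and 38 of them in the cluster led by Rorb. In the 46 macrophage-like cells Birc5 was detected in 80.4%, and Mki67, Top2a and Pclaf in 78.3% each. The shares in the 276 remaining cells were 81.9%, 80.1%, 89.9% and 87.7%. Cdc6 was detected in 21.7%, against 31.2%.

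One cluster of 91 cells, 2.74% of all, held 33.5% of member UMIs, at 106 per 10000, and 98.9% of its cells had 5 or more members. Its leading genes were the replication-dependent histones Hist1h1b and Hist1h2ab, which were not among the genes left out. What set the cluster apart was not tested. Its cells carried 70.5 glial or tumour marker UMIs per 10000 and 4.34 macrophage marker UMIs. When genes correlated with the members were also left out, 72 of the 91 joined a cluster led by Rorb and Dcaf17, 19 joined a cluster led by Clca3a1 and Matn4, and 0 joined a macrophage-like cluster. Of the other remaining clusters, that led by Rorb and Tnc had 16.7% of cells with 5 or more members (79 of 472), that led by Nefl and Klk7 12.4% (45 of 362), that led by Clca3a1 and Matn4 8.89% (57 of 641) and that led by Dcaf17 and Ahnak2 3.03% (5 of 165).

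**Figure D5:**
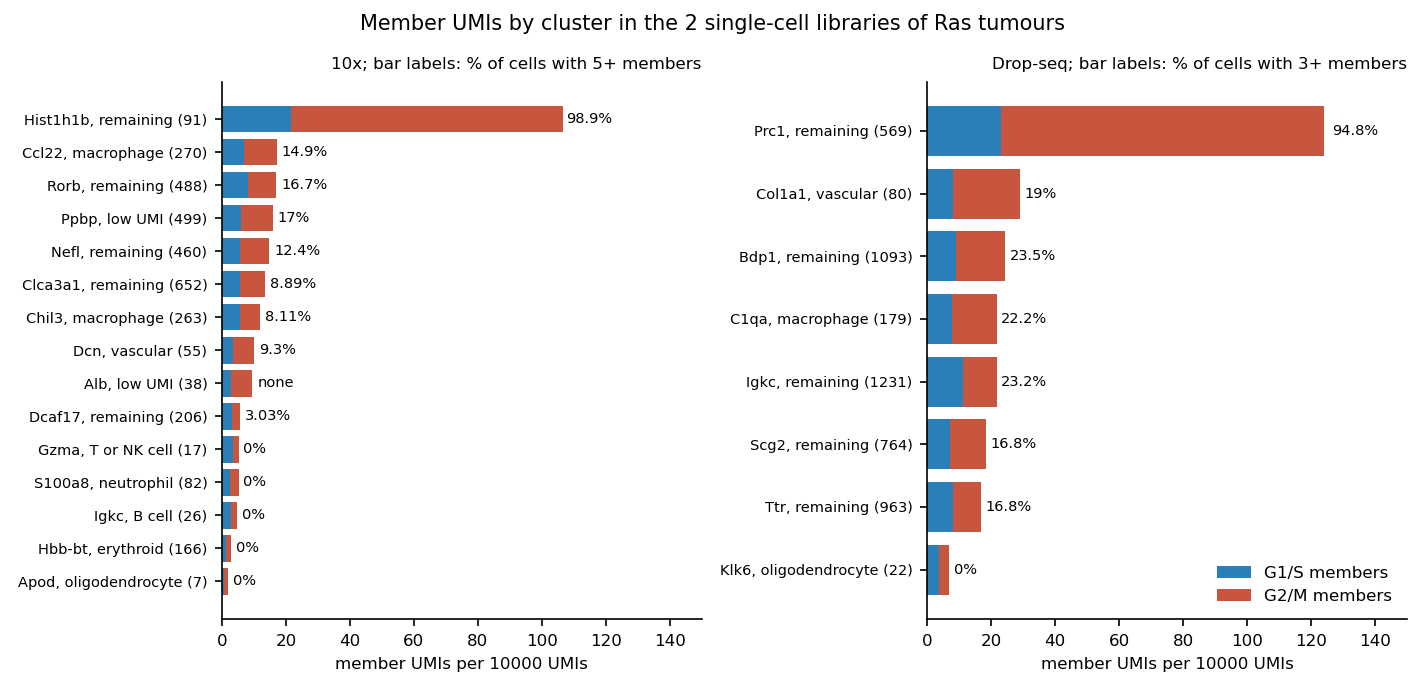
Member UMIs per 10000 UMIs by cluster in the 10x (left) and Drop-seq (right) libraries, stacked as G1/S (blue) and G2/M (red); clusters are named by their leading gene and class with cells in brackets, and the label at each bar is the share of cells with 5 or more (10x) or 3 or more (Drop-seq) members after thinning. One cluster in each library stands at 106 and 125 per 10000, and macrophage-like clusters lie among the remaining ones, while neutrophil-like, erythroid and lymphocyte-like clusters are at 0%.

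In the Drop-seq library, the 1 macrophage-like cluster of 179 cells also held the programme. Of 99 cells deep enough, 22 (22.2%, 14.5 to 31.7%) had 3 or more members, and in the remaining clusters 1036 of 3252 did (31.9%, 30.3 to 33.5%). Member UMIs were 21.7 per 10000 in the macrophage-like cluster (19.9 to 23.7) and 39.5 in the remaining clusters (39.1 to 40.0), and 45 of 51 members were lower in the macrophage-like cluster, 28 of 30 G2/M members (median ratio 0.504) and 17 of 21 G1/S members (median ratio 0.64). Here the 22 cells differed from the other 77 in their markers, with 27.1 glial marker UMIs per 10000 against 20.7 and 433 macrophage marker UMIs against 635, and 31.8% of them, against 14.3%, were among the cells with the highest doublet scores; the part of mixed barcodes was not tested. Without the highest 5% of doublet scores, the cluster stood at 18.6 member UMIs per 10000. None of 13 oligodendrocyte-like cells passed (3 cells would be 23.1%, exact upper bound 24.7%). Of 58 vascular cells, 11 did (19%, 9.87 to 31.4%). A cluster of 569 cells led by Prc1, itself a mitotic gene, stood at 125 per 10000 with 94.8% of cells at 3 or more members. The cluster led by Igkc and Ighm, genes of B cells, had 23.2% (231 of 996) and counts among the remaining clusters; its glial or tumour markers stood at 79.3 UMIs per 10000. Mki67 stood at 1.55 UMIs per 10000 in the macrophage-like cluster and 1.94 in the remaining clusters, Top2a at 2.59 and 4.91, and Pclaf at 1.25 and 2.24. Levels are not compared between the libraries, whose depths and chemistries differ.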

How the data were processed

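The authors' deposited tables hold raw counts, per gene and library in 3 bulk tables and as UMI counts per gene and cell in the single-cell libraries. Per the submitters' processing notes, the software comprised STAR 2.6.1e as well as featureCounts 1.6.2, with Cell Ranger, cutadapt 1.9.1 and Trim Galore 0.4.2 also listed, and builds GRCm38 and mm10; their roles by library are not given in the sources used here. Rows that name no gene (date names, at most 0.36% of a library) and 5 columns of no listed sample were left out, and in the tumour and line tables low counts were mostly even (62.8 to 69.4%), so that a fragment may be counted by both reads. Whether strand was used is not stated.

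Older symbols of members were matched through RefSeq names. Bulk tables were fitted apart with edgeR 4.0.16 (TMM, filterByExpr, robust quasi-likelihood test, Benjamini-Hochberg over all genes), in R 4.3.3; SE is the fold over the square root of F. No label says how the libraries were replicated beyond a mouse or line number, so p-values measure only the spread between these libraries. DESeq2 1.42.0 and other settings were alternatives. With scanpy 1.11.5, cells needed 500 UMIs and 300 genes in 10x, 300 UMIs and 200 genes in Drop-seq, and a mitochondrial share of 20% or less; they were clustered on 2000 variable genes, 30 components and 15 neighbours by Leiden at 0.5; doublets were scored with Scrublet and not removed. The members and lists were chosen with earlier results of these data known. Genes were named by a rule: 29 members in every library, those with the 4 highest and 4 lowest folds, and up to 4 genes of each other list with the smallest p.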

Additional observations from a re-analysis of the deposited data

How the results depend on the processing

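The counts of members called kept their side in tumours and lines under every alternative run (0 called). In CD11b-positive cells the count was 26 with RLE factors and 22 with library size alone, and 41 with upper-quartile factors, 48 with DESeq2 and 38 with no filter on low counts. The cause was not tested. The median fold there was -1.47 to -1.56 under those settings and -1.81 or -1.26 without 1 PLX3397 library. In tumours it was -0.28 to 0.05 when 1 library was left out, -0.15 with a term for Ddx3y above or below 1 CPM, and -0.30 and 0.01 within libraries with and without Ddx3y. The comparisons by Ddx3y and of single CD11b libraries were added after seeing the data. In lines it was -0.45 to 0.52, and below 0 without Ras line 2 (-0.45) and without PDGF line 2 (-0.06). With the replicate number as a block, it was -0.14 in tumours and 0.12 in lines, with 0 members called. The correlations of same-numbered libraries, as deviations from group means, were 0.11, 0.13, -0.42 and 0.45 in tumours and -0.18 and -0.11 in lines. They were not set against those of other pairs, so they cannot show whether libraries were paired. No label pairs them beyond the number. No paired analysis was possible for CD11b-positive cells because the groups share 1 number, and no test is left there when a library is dropped.

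In 10x, the share of macrophage-like cells was 3.55% and that of the remaining clusters 8.84% with cells thinned to 1000 UMIs, 20.8% and 25.8% at 3 members and 7.26% and 10.2% at 8 members. Member UMIs per 10000 of the remaining clusters were 22.4 with cell cycle genes kept, and 21.5 both without the highest 5% of doublet scores and with correlated genes left out, a setting added after seeing the data. In Drop-seq, the shares of the macrophage-like cluster and the remaining clusters were 10.6% and 19.6% at 500 UMIs, and 33.3% and 43.4% at 2 members. The remaining clusters had 22.4% at 5 members and 30% without the highest doublet scores, where the macrophage-like cluster had 18.6 member UMIs per 10000. The macrophage-like share lay below the remaining one under each of the settings given here as a pair.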
